A study of Mus musculus with 3 samples.

Results

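Transcripts of the circadian clock were measured in RNA bound to endothelial ribosomes of the mouse heart. The genes described are Clock, Per1, Per2, Per3, Cry1, Cry2, Nr1d1, Nr1d2, Dbp and Tef, which were chosen by symbol as core clock and clock output genes. All 10 were found among the 17583 genes of the deposited table. The libraries came from 3 EC-RiboTag mice (genotype Cdh5-CreERT2;Rpl22tm1.1Psam), 1 library per mouse, and all belong to a single condition. In these mice tamoxifen activates a Cre recombinase under control of the Cdh5 promoter, which is active in endothelial cells. Cre switches the ribosomal protein gene Rpl22 to a version with a hemagglutinin tag, so that ribosomes of recombined cells can be pulled down with their RNA. The mice had a C57BL/6 background, and the study used animals of both sexes aged 8 to 20 weeks, and mice of 10 to 12 weeks for coronary ligation, without giving the age of each of these mice. According to the sample labels, hearts were taken on day 7 after coronary ligation. The titles carry the letters Rz. The study writes RZ for the remote zone of infarcted hearts and describes EC-RiboTag RNA from separate zones after infarction, whereas the labels of these libraries give the tissue as heart, so that whole hearts and remote zones cannot be told apart here. Neither its RiboTag methods nor its legend for the sequenced RiboTag RNA mentions an infarction or a zone. Mice were housed under a light-dark cycle, but the time of day at which each heart was taken is not given in the sources used here. No library of unbound RNA and no untreated group was analysed here, so no difference between conditions was tested.

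The circadian clock of mammalian cells is a feedback loop of transcription and translation. The proteins CLOCK and BMAL1 (gene Arntl in these data) bind E-boxes and activate the Per and Cry genes, whose products then inhibit CLOCK and BMAL1. A secondary loop joins the repressors REV-ERB alpha and beta (Nr1d1 and Nr1d2) and the activators of the ROR family, which compete for ROR elements, among others in Arntl. The transcription factors DBP, TEF and HLF carry the rhythm to D-boxes, where they compete with the repressor NFIL3. In peripheral tissues such as heart, Arntl transcripts peak roughly opposite to those of Nr1d1 and Dbp, the Per genes peak later than Nr1d1, and Clock itself changes less over the day. Per1 and Per2 also respond acutely to signals such as cyclic AMP and glucocorticoids.

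The short DNA elements through which these factors act on each other's genes were searched in the 250 bases before the start of the canonical transcript (GENCODE M39 annotation, GRCm39). An E-box (CACGTG) was found in Cry1, Per1 and Tef, and in 6.26% of the 21770 promoters of protein-coding genes. The E-box variant CACGTT was found in Cry1, Cry2 and Nr1d1 (4.16% of promoters), and a D-box (TTATGTAA or TTACGTAA) in Per2 and Per3 (0.937%). A ROR element (TAGGTCA) was found in Dbp (2.17%), and a cyclic AMP response element (TGACGTCA) in none of the 10 genes (1.70%). Both strands were searched, and a match describes the sequence and not a bound site. Matches further away were not searched.

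The E-box stretches of Per1, Cry1 and Tef are shown because these genes share an element and differed in how they varied between the mice. Sequences run 5′ to 3′ on the strand of the gene, with the E-boxes and the E-box variant of Cry1 (read as AACGTG on this strand) in capitals. They lie at chr11:68989222-68989267 (plus strand), chr10:85020971-85020999 (minus strand) and chr15:81695453-81695506 (plus strand) of GRCm39. No annotated exon overlaps the Per1 stretch, an exon of a Cry1 transcript subject to nonsense-mediated decay overlaps that of Cry1, and an exon of the antisense noncoding RNA Gm17597 overlaps that of Tef.
Per1: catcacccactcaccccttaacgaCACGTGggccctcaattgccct
Cry1: gaAACGTGaggtgccggtggtCACGTGgg
Tef: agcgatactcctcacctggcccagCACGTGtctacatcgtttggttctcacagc

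The D-boxes of Per2 and Per3, and the ROR element of Dbp, are shown because they are elements that other genes of the group are known to act on. The capitals mark the D-boxes, of which Per3 holds a pair, and the ROR element. The stretches lie at chr1:91387140-91387195 (minus strand), chr4:151129249-151129351 (minus strand) and chr7:45354312-45354340 (plus strand) of GRCm39. No annotated exon overlaps the Per2 stretch, the noncoding RNA Gm69444 overlaps that of Per3, and an exon of Car11, a neighbouring protein-coding gene, overlaps that of Dbp.
Per2: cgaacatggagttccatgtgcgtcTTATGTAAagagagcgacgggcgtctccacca
Per3: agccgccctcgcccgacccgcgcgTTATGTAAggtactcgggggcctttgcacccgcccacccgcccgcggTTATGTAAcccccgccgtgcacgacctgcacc
Dbp: ttggccaaataTAGGTCAgtgtcccgcct

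Values are normalized counts, that is, read counts per gene that the authors scaled between libraries with DESeq2 size factors and rounded. They sum to 7149102, 7158585 and 7268785 in mice 1, 2 and 3, which are not depths, and the estimated depths are about 7320000, 6755000 and 7566000 reads. The spread between mice is given as SD or as coefficient of variation (CV, SD divided by mean), and counting alone would give CVs of 2.43% (Tef) to 5.42% (Nr1d1). Xist, expressed from the inactive X chromosome, had 4, 618 and 869 normalized counts, and the Y-linked gene Ddx3y had 1080, 3 and 1. Mouse 1 thus had the pattern of a male and mice 2 and 3 that of females, so that sex and other differences of mouse 1 cannot be told apart.

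All 10 genes had a mean of at least 200, the level above which genes are counted below, and 9358 genes of the table reached it.

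Every one of the 10 genes was clearly detected, and most differed little between the 3 hearts. Only Per1 had a CV above 20%, compared with 749 of the 9358 genes (8.00%), and the median CV of the 10 genes was 8.49% against 7.37% over these genes. Compared with genes of similar mean (differing by at most a factor of 0.8 either way), 7 of the 10 lay above the median CV. Without mouse 3, no clock gene exceeded 20% (8.71% of all genes did). The median CV of the 10 genes was then 5.52% against 5.71% for all genes. The direction of the differences was not common to the group. Clock, Per1 and Per2 had their highest value in mouse 3, and Cry1, Nr1d1, Nr1d2, Dbp and Tef their lowest. The canonical transcripts of the former are 9911, 6691 and 5836 bases long. Those of the latter are 3047, 2721, 5669, 1837 and 4244 bases long, and a part of transcript length in this split was not tested. With 3 values per gene and no condition to compare, these differences are described and no test was made.

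**Figure D1:**
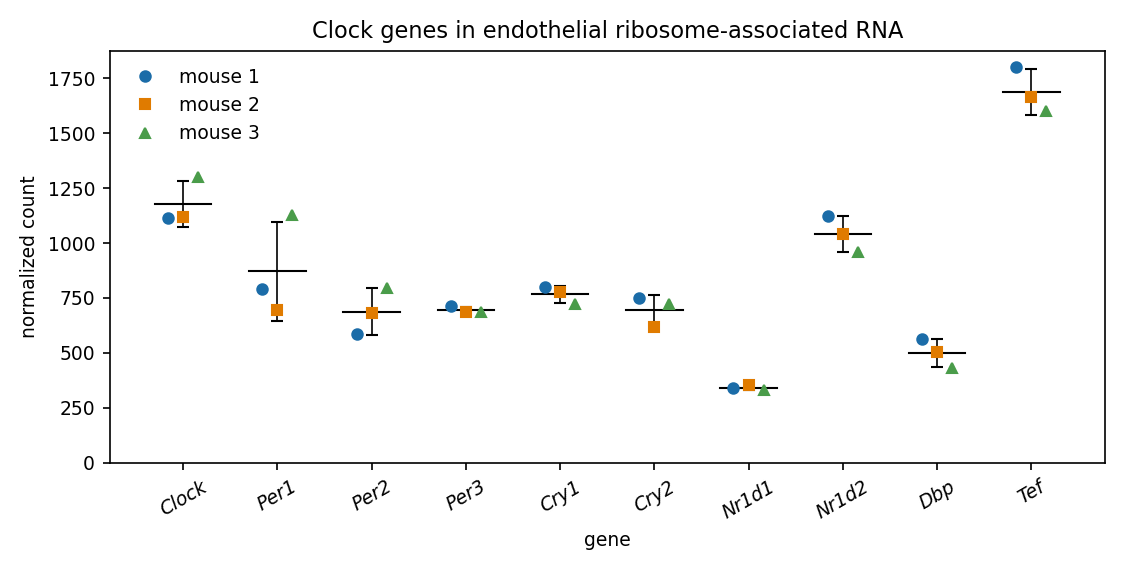
Normalized counts (vertical axis) of the 10 clock genes in each mouse (points), with the mean and SD over the 3 mice (lines and bars). Per1 and Per2 are highest in mouse 3, Dbp, Nr1d2 and Tef are lowest there, and the values of Per3 and Nr1d1 lie close together.

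Clock, which encodes the DNA-binding partner of BMAL1, had normalized counts of 1114 (mouse 1), 1118 (mouse 2) and 1301 (mouse 3), with the mice in the same order hereafter (mean 1178 ± 107, SD, n = 3). Mouse 3 stood above the other two, which were nearly equal, and the CV was 9.07% compared with a median of 6.10% for genes of similar mean. Arntl, the gene of BMAL1, had 201, 178 and 290 (mean 223 ± 59.2). It was also highest in mouse 3, by 1.63 times over mouse 2, and its CV of 26.5% was the highest among clock-list genes whose mean reached 200. The mean of Arntl was near that limit, where CVs are larger. Its CV was larger than that of 87.6% of the genes of similar mean, whose median was 10.8%, and counting alone would give 6.67%. The paralogs were low. Npas2, which can replace Clock, had 20, 24 and 19, and Arntl2 had 79, 89 and 80.

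Per1, a repressor of CLOCK and BMAL1, had normalized counts of 789, 697 and 1126 (mean 871 ± 226). Mouse 3 was 1.62 times as high as mouse 2, and the CV of 25.9% was larger than that of 98.3% of the genes of similar mean. Per2, its close relative, had 585, 683 and 797 (mean 688 ± 106). It was likewise highest in mouse 3 but lowest in mouse 1, with a CV of 15.4%. Per3, with 712, 684 and 687 (mean 694 ± 15.4), was nearly equal in the 3 hearts. Its CV of 2.21% was below the 3.79% expected from counting, so that a difference of Per3 between these mice was not detectable at this depth.

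Cry1 and Cry2 encode the partners of the PER proteins in repression. Cry1 had normalized counts of 799, 778 and 721 (mean 766 ± 40.4), a CV of 5.27% against 3.61% from counting. Cry2 had 749, 619 and 722 (mean 697 ± 68.6), lowest in mouse 2 with a CV of 9.85%. The remaining genes of the negative arm were Ciart, Bhlhe40 and Bhlhe41, which encode further repressors of CLOCK and BMAL1. Ciart was low, with 33, 49 and 19, where counting alone would give a CV of 17.4%, compared with the observed 44.6%. Bhlhe40 had 1110, 1299 and 1281, and Bhlhe41 had 189, 170 and 168.

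Nr1d1, encoding REV-ERB alpha, had normalized counts of 339, 352 and 332 (mean 341 ± 10.1). The CV of 2.98% was below the 5.42% from counting, so that no difference between the mice was detectable. Its paralog Nr1d2 was higher and had 1125, 1042 and 960 (mean 1042 ± 82.5, CV 7.91%), with the lowest value in mouse 3. Exact copies in annotated transcripts of genes at other places were found for 3.93% of the 72-base windows of the Nr1d2 transcript. The authors removed multi-mapping reads. For the other 9 genes no window had such a copy, and copies outside annotated transcripts were not searched. Rora, an activator at the same elements, varied more than either repressor, with 824, 485 and 702 (CV 25.6%), and was lowest in mouse 2. Rorb, with 5, 6 and 8, was close to the detection limit of the table. Nfil3, the repressor at D-boxes, had 177, 200 and 240 and was highest in mouse 3.

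Dbp, whose transcript is among the most strongly cycling in peripheral tissues, had normalized counts of 562, 506 and 432 (mean 500.0 ± 65.2). Mouse 1 was 1.30 times as high as mouse 3, and the CV of 13.0% compares with 4.47% from counting and with a median of 7.80% for genes of similar mean. Tef, the most abundant of the 10 genes, had 1802, 1664 and 1599 (mean 1688 ± 104, CV 6.14%). Hlf, the third member of this family, had 742, 577 and 699 (CV 12.7%) and was lowest in mouse 2. The order mouse 1, mouse 2, mouse 3 from high to low was shared by Cry1, Nr1d2, Dbp and Tef, 4 of the 10 genes, and by 22.7% of the 9358 genes. In all, 6 of the 10 genes were highest in mouse 1 (37.6% of the 9358 genes), 1 was highest in mouse 2 (31.9%) and 3 in mouse 3 (29.7%), while 5 were lowest in mouse 3 (38.97%). For so few genes these counts lie near what the shares of all genes give, and they include Per3 and Nr1d1, whose differences between mice were within counting error.

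**Figure D2:**
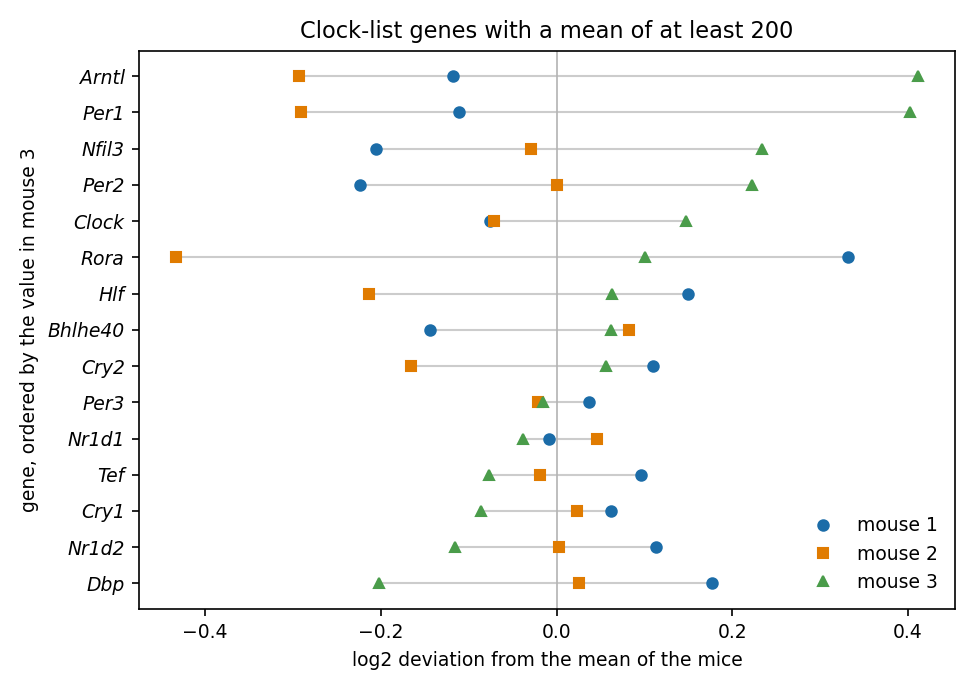
Log2 deviation of each mouse from the mean of the 3 mice (horizontal axis) for 15 clock-list genes whose mean was at least 200, ordered by the value in mouse 3. Arntl (0.41 in mouse 3), Per1 (0.40), Nfil3 (0.23) and Per2 (0.22) are at the top and Dbp (-0.20) at the bottom.

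The plot of deviations shows how the arms of the loop stood to each other in each heart. In mouse 3, Clock and Arntl had a median log2 deviation of 0.28 and Per1, Per2 and Per3 one of 0.22, compared with -0.08 for Nr1d1 and Nr1d2 and -0.08 for Dbp, Tef and Hlf. In that mouse Per3 (-0.02) and Hlf (0.06) had the sign opposite to their group. In mouse 1 the medians had the sign opposite to those of mouse 3, with -0.10 and -0.11 for the first 2 groups and 0.05 and 0.15 for the others. There Per3 (0.04) and Nr1d1 (-0.0081) went against their groups. The deviations of a gene balance out over the 3 mice, so part of this opposite sign was fixed beforehand. In mouse 2 the medians were -0.18, -0.02, 0.02 and -0.02. The 7 output genes Per1, Per2, Per3, Nr1d1, Nr1d2, Dbp and Tef together had medians of 0.04, 0.0003 and -0.04 in mice 1, 2 and 3. In mice 1 and 3 high and low members offset each other, while in mouse 2 all but Per1 (-0.29) lay between -0.0214 and 0.0462. The genes sharing an E-box in the stretches shown above did not share a pattern. Per1 was highest and Tef and Cry1 lowest in mouse 3. Of the 2 genes with D-boxes, Per2 was highest in mouse 3 and Per3 was nearly even.

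Ratios of genes within a mouse do not depend on the scaling between libraries. These pairs were chosen after the values had been seen, and no test was made. The ratio of Dbp to Arntl was 2.80 in mouse 1, 2.84 in mouse 2 and 1.49 in mouse 3. Mice 1 and 2 were alike and mouse 3 stood apart, with a 1.91-fold range. The ratio of Nr1d1 to Arntl was 1.69, 1.98 and 1.14, that of Nr1d2 to Arntl 5.60, 5.85 and 3.31, and that of Tef to Arntl 8.97, 9.35 and 5.51. All 4 ratios were lowest in mouse 3, in which Arntl, common to all of them, was highest. The ratios to Arntl of Per3 (3.54, 3.84 and 2.37), Clock (5.54, 6.28 and 4.49) and Per2 (2.91, 3.84 and 2.75) were lowest there too. In contrast, the ratio of Per1 to Arntl was 3.93, 3.92 and 3.88, a CV of 0.572%, which is smaller than counting error alone would give for either gene (3.38% and 6.67%). With the repressor Nfil3 in place of Arntl, the ratio of Dbp was 3.18, 2.53 and 1.80, again lowest in mouse 3, but with mouse 2 between the others. Clock in place of Arntl gave a narrower range for Dbp, with 0.505, 0.453 and 0.332, and for Nr1d1, with 0.304, 0.315 and 0.255.

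**Figure D3:**
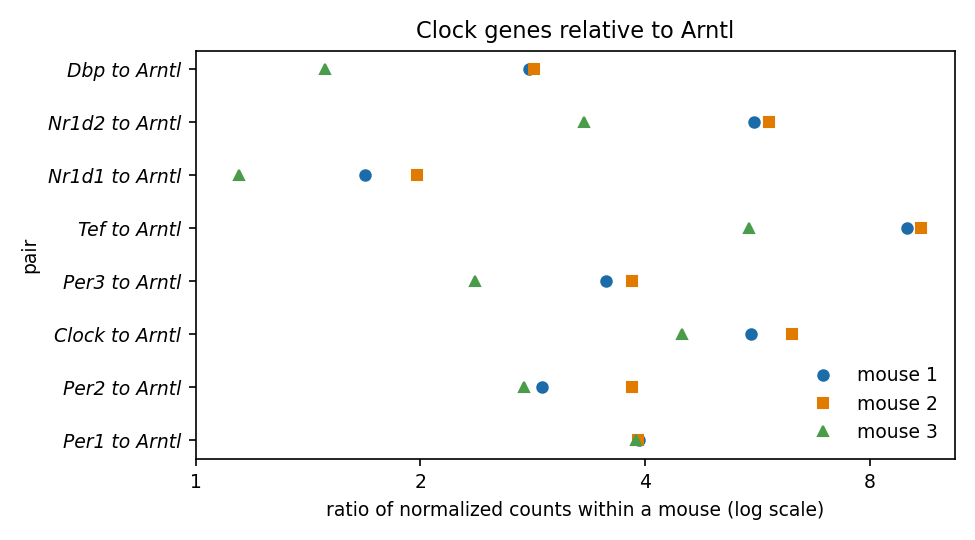
Ratio of the normalized count of each clock gene to that of Arntl within each mouse (horizontal axis, log scale), for 8 pairs. The ratios of Dbp, Nr1d1, Nr1d2, Tef and Per3 are lowest in mouse 3 with mice 1 and 2 closer to each other, while the 3 points of Per1 nearly coincide. Those of Clock and Per2 are also lowest in mouse 3, but for Per2 mouse 1 lies close to mouse 3.

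The order of levels between genes was compared per kilobase of canonical transcript, which is 1837 bases long for Dbp and 9911 bases for Clock. Tef was highest with 398 ± 24.4 normalized counts per kb, followed by Dbp with 272 ± 35.5, Cry1 with 251 ± 13.2, Nr1d2 with 184 ± 14.6 and Cry2 with 168 ± 16.6. Per1 (130 ± 33.8), Nr1d1 (125 ± 3.73), Clock (119 ± 10.8), Per2 (118 ± 18.2) and Per3 (115 ± 2.56) formed a nearly level end. Neighbours were taken to differ where the log2 ratio had the same sign in all 3 mice and its mean exceeded its SD. By this rule 3 of the 9 neighbouring pairs differed, namely Tef from Dbp, Cry1 from Nr1d2 and Cry2 from Per1. No neighbours among the last 5 genes differed. When all annotated exons of a gene were used for the length, 4 of 9 pairs differed, Cry1 came before Dbp, and Cry2 moved from the fifth place to the place after Per2. Which transcripts endothelial cells use was not measured at the level of this table.

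**Figure D4:**
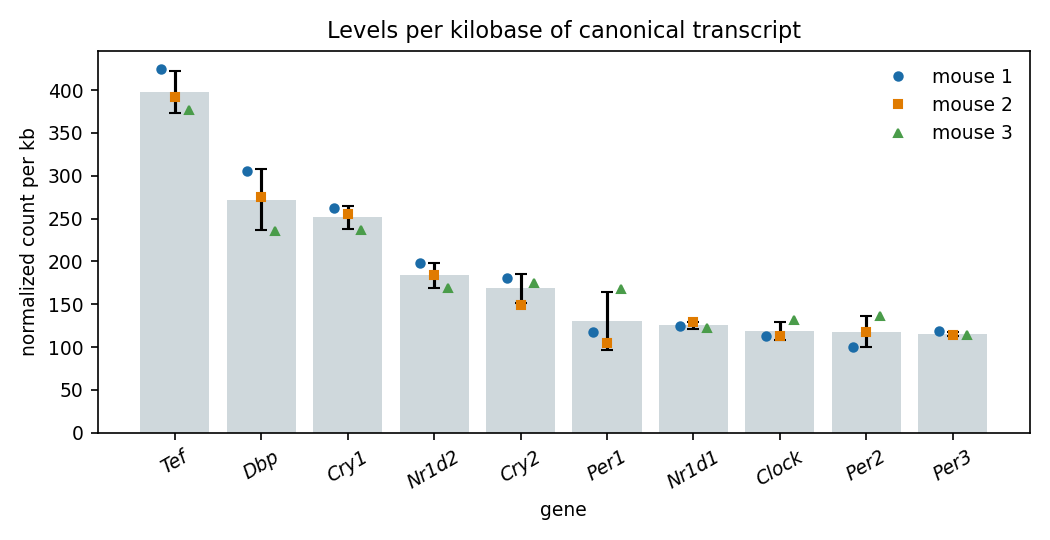
Normalized counts per kilobase of canonical transcript (vertical axis, from 0) for the 10 clock genes, as the mean (bars) and SD (error bars) over 3 mice, with each mouse as a point. Tef is highest at 398, and the 5 genes from Per1 to Per3 lie between 115 and 130.

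Within families, paralogs were compared per kilobase with an exact sign-flip permutation test on the log2 ratio in each mouse, two-sided, over 6 pairs. With 3 mice the smallest p this test can give is 0.25, so no pair could pass 0.05. Cry1 exceeded Cry2 by a log2 ratio of 0.58 ± 0.17 (SD, n = 3, exact p = 0.25, adjusted 0.5), in 3 of 3 mice. Nr1d1 was below Nr1d2 with a log2 ratio of -0.55 ± 0.11, and Dbp below Tef with -0.55 ± 0.11, each in 3 of 3 mice with the same exact p = 0.25 (adjusted 0.5). The 3 Per genes had mean ratios near 0 with larger spread. The log2 ratio was 0.12 ± 0.25 for Per1 to Per2 (exact p = 0.5), 0.14 ± 0.37 for Per1 to Per3 (exact p = 1) and 0.02 ± 0.25 for Per2 to Per3 (exact p = 0.75). The last of these was -0.24 in mouse 1 and 0.26 in mouse 3, so that by canonical length which of these Per genes was higher differed from mouse to mouse. This depended on the length used. With all annotated exons, Per1 to Per3 was 0.75 and Per2 to Per3 was 0.65, each above 0 in 3 of 3 mice (exact p = 0.25).

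**Figure D5:**
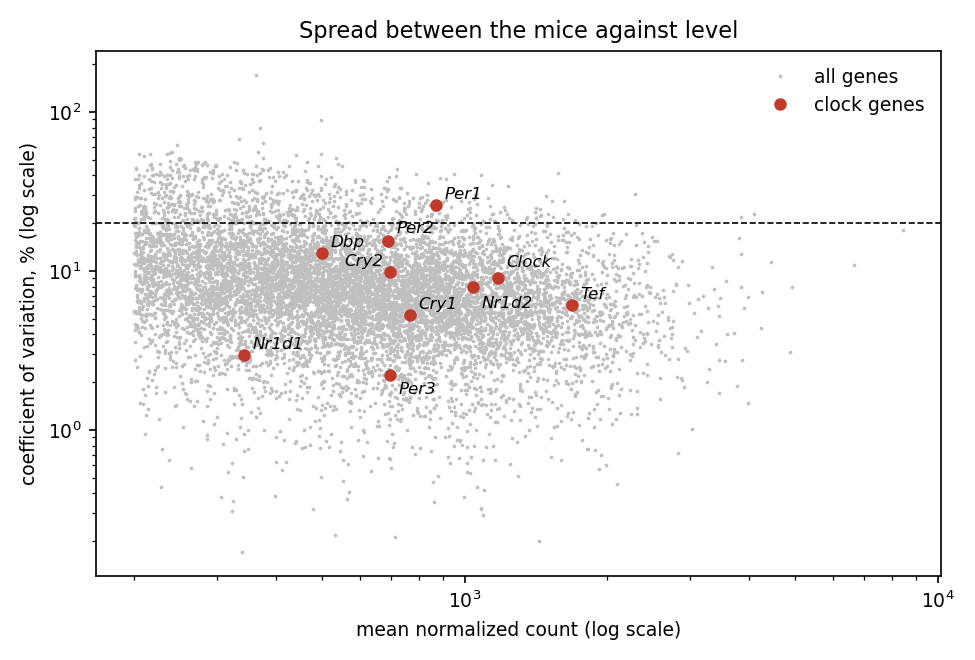
CV over the 3 mice in percent (vertical axis, log scale) against the mean normalized count (horizontal axis, log scale) for 9358 genes whose mean was at least 200 (grey) and the 10 clock genes (red). The dashed line marks 20%, which Per1 (25.9%) exceeds, and Per3 (2.21%) and Nr1d1 (2.98%) are among the least variable genes at their level.

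Over the whole clock lists (positive arm, negative arm, secondary loop and D-box activators), 21 genes were measured and 15 had a mean of at least 200. Of these, 3 exceeded a CV of 20%, namely Arntl, Per1 and Rora, against the 8.00% of all genes. Other regulators of the clock act on its proteins, among them on their stability. None of 17 kinases, ubiquitin ligases and other clock regulators with a mean of at least 200 exceeded 20%, where 8.00% of all genes did. For so few genes this count lies near what that share gives. Their list had a median CV of 5.31%, against 7.37% over all genes at that level. The gene of that list with the highest count was Csnk1a1, a casein kinase, with 2172, 2322 and 2084 normalized counts. Its CV of 5.49% compares with a median of 5.23% for genes of similar mean.

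The genes whose profile over the mice was nearest to the mean profile of the 7 output genes were Exoc2, Atxn1l, Fyco1, Iars2 and Ctcf, by Euclidean distance of log2 deviations among the 9263 genes outside the lists with a mean of at least 200 and no value of 0. That mean profile was nearly flat (0.01, -0.04 and 0.03), and 553 genes lay within a distance of 0.05 of it, so that likeness over 3 mice singles out no small group of genes.

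Lists that hold transcripts high in mouse 3 are given here, and their part in the values of Per1, Per2 and Arntl was not tested. Immediate early genes encode transcription factors and other proteins induced within minutes of a stimulus. Of 15 such genes with a mean of at least 200, 9 were highest in mouse 3, compared with 29.7% of all genes at that level. Fos (252, 220 and 652), Fosb (204, 198 and 707) and Egr1 (1254, 996 and 1525) exceeded a CV of 20%, as did 8.00% of all genes. Jun, which had the highest count of the list, was lowest in mouse 3 (1646, 1463 and 1406), and the summed level was 12322, 11711 and 13466. Of 8 glucocorticoid-responsive genes at that level, 3 were highest in mouse 1 (37.6% of all genes), 4 in mouse 2 (31.9%) and only Zbtb16 in mouse 3 (29.7%). Zbtb16 had 213, 285 and 598, while Fkbp5 was lowest in mouse 1 (625, 1023 and 961). Tsc22d3 (1269, 1253 and 1240) and Sgk1 (1660, 1722 and 1670), which respond to the same hormones, were nearly even. Their list summed to 7564, 7870 and 8408, and the median CV of its 8 genes at that level was 15.25%, against 7.37% over all genes.

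The endothelial label was set beside marker genes. All 12 endothelial markers had a mean of at least 200, with a summed level of 28993, 27946 and 29093, and Cdh5, the gene whose promoter drives Cre, had 2808, 2860 and 2930. All 10 cardiomyocyte markers and 9358 genes of the table reached that mean too, so it does not by itself show an endothelial origin. Without a library of unbound RNA, an enrichment of endothelial transcripts could not be measured. The endothelial marker with the highest count was Flt1 (5352, 4588 and 4816). Vwf alone of the 12 exceeded a CV of 20% (1898, 1886 and 3098), a share close to the 8.00% of all genes, and was highest in mouse 3. Markers of other cardiac cells were present as well. The 10 cardiomyocyte markers summed to 20679, 21339 and 24237, with the highest count for Ttn (7379, 7743 and 10190). Counts here are not divided by length. Per kilobase of canonical transcript, Ttn was the lowest of the 10, with 78.5, and Myl2 the highest, with 819. The higher sum in mouse 3 came mostly from Ttn and Ryr2 (3280, 3667 and 4486). In contrast, 6 of the 10 cardiomyocyte markers were highest in mouse 1 (37.6% of all genes were), among them Tnni3 (644, 581 and 535) and Myl2 (729, 701 and 605). The canonical transcripts of Ttn and Ryr2 are 107543 and 16853 bases long, and those of Tnni3 and Myl2 916 and 828 bases. A part of transcript length in these differences was not tested. The 8 fibroblast markers summed to 3047, 3970 and 4186, with the highest count for Dcn (813, 579 and 1007). The 8 mural markers summed to 1372, 1917 and 2104, led by Rgs5 (542, 615 and 505), and the 6 measured leukocyte markers to 431, 650 and 649, led by Lyz2 (188, 224 and 240). Cd79a, a B cell marker, was near or at 0 (1, 10 and 0). The table lists only genes that reached 4 in at least 1 mouse, so that no listed marker could be at 0 in all. Clock genes are expressed in all of these cells. In bulk libraries, fewer cells of a type and less RNA per cell cannot be told apart, and what part of the clock transcripts came from non-endothelial cells was not tested.

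Of these other lists, 5 of the 7 fibroblast markers with a mean of at least 200 exceeded a CV of 20%, against 8.00% of all genes. Col1a1 (378, 642 and 401), Col3a1 (388, 798 and 655) and Postn (344, 741 and 671) were lowest in mouse 1, while Dcn and Lum (458, 309 and 618) were lowest in mouse 2. Of the 4 mural markers at that level, Tagln (103, 206 and 338) and Cspg4 (134, 295 and 186) did so, both lowest in mouse 1. Tagln is a gene of smooth muscle, and Myh11 (31, 118 and 240) and Acta2 (67, 128 and 210), further genes of smooth muscle whose means were below 200, had the same order, with the highest value in mouse 3 like Per1, Per2 and Arntl. Their part in those values was not tested. Of the 10 clock genes, Clock and Per2 were lowest in mouse 1, where 31.8% of all genes with a mean of at least 200 were lowest. So were Nfil3, Bhlhe40 and the low Arntl2 and Rorb of the wider clock lists.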

How the data were processed

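RNA bound to tagged endothelial ribosomes was sequenced as 72-base single reads from 3 hearts. Per the study's methods and the submitters' processing notes, the authors trimmed reads with Trimmomatic 0.39, aligned them with STAR 2.7.11a to mm39 (GRCm39), and discarded duplicates (Picard 3.1.1) as well as ribosomal, mitochondrial and multi-mapping reads. Reads were counted on the gene's strand with featureCounts 2.0.4, leaving out reads that overlap several genes, and normalized with DESeq2 1.36.0. The deposited values are normalized counts rounded to whole numbers and were treated as a score, not as raw counts, so no count model was fitted. Duplicate removal by position can lower strongly expressed genes most, and the highest of the 10 clock genes had 0.398 normalized counts per base of transcript. Cdh5 (0.713), Flt1 (0.713), Myl2 (0.819) and Csnk1a1 (0.650) had more, and Ttn (0.0785) and Ryr2 (0.226) less. How far the removal lowered the counts or CVs of these genes was not tested. Antisense neighbours such as Thra (Nr1d1) and Sphk2 (Dbp) were kept apart by strand. No exon of the 10 genes is shared with another gene on the same strand.

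Depth was estimated from the gaps and doublings among whole numbers between 5 and 120, and a script with these steps was tested on simulated data. Computations used Python 3.11.15, numpy 2.4.6, pandas 2.3.3 and matplotlib 3.10.9. Of the 17583 identifiers, 17475 were found in GENCODE M39, which gave transcript lengths and start sites and is newer than the annotation of the authors. Arntl is named Bmal1 there. Cd3e and S100a8 were not analysed here. Some genes of the lists are not reported here. No column of another sample is in the table. The 10 genes and all lists were chosen with earlier results of these data known. Apart from the genes not reported, the text names the 10 genes, the other genes of the 4 clock lists, of other lists the genes whose mean reached 200 with a CV over 20% and the top gene of each marker list, and the 5 genes with the nearest profile. Csnk1a1, Jun, Tsc22d3, Sgk1, Cdh5, Ryr2, Tnni3, Myl2, Myh11, Acta2, Cd79a, Xist and Ddx3y were named after their values were seen. Alternatives were a rescaling to trimmed means of log ratios (trimming 30% of ratios and 5% of levels) or to equal totals, other minimums, CV limits, pseudocounts and lengths, and leaving out each mouse. The 3 libraries are biological replicates per the labels.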

Additional observations from a re-analysis of the deposited data

How the results depend on the processing

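The count of clock genes with a CV over 20% was 1 under both other scalings (8.00% and 7.91% of all genes), and when the highest value had to exceed 1.5 times the lowest (7.15%). A minimum mean of 100, 50 or none could not change it, since all 10 genes had means above 200, but raised the share of all genes over 20% to 11.6%, 14.9% and 35.9%. It was 2 (Per1 and Per2) at a limit of 15%, which 14.9% of all genes exceeded, and 0 at 30% (2.84% of all genes). Leaving out each mouse gave 0 to 2 genes. The call of Per1 rests on mouse 3, since without mouse 3 no clock gene exceeded 20% (8.71% of all genes did), and without mouse 2 both Per1 and Per2 did (9.86% of all genes). The median CV of the clock genes was 5.52% to 9.70% when each mouse was left out. Without mouse 3 it was 5.52% against 5.71% for all genes, so that the clock genes were then below and no longer above all genes. It was 8.38% and 8.42% under the other scalings. All 180 recomputed log2 deviations of single genes moved by less than the SD of the gene, but 11 changed sign, 10 of them when a mouse was left out, from values of at most 0.111 in size. Of Per1, the gene over 20%, this concerned mouse 1, at -0.11, which lay between -0.257 without mouse 2 and 0.0894 without mouse 3. The median deviation of the output genes in mouse 2 was 0.0003, and 0.0287 without mouse 1 and -0.0553 without mouse 3. The log2 ratio of Per2 to Per3 became -0.0238 without division by length, and the others became 0.32 (Per1 to Per2), 0.30 (Per1 to Per3), 0.14 (Cry1 to Cry2, exact permutation p = 0.5, since it was then no longer above 0 in mouse 3), -1.61 (Nr1d1 to Nr1d2) and -1.76 (Dbp to Tef). When each mouse was left out, the ratio of Per1 to Per3 ranged from -0.0655 to 0.28 and that of Per2 to Per3 from -0.10 to 0.15. With all annotated exons, Per1 to Per3 rose from 0.14 to 0.75, Per2 to Per3 from 0.02 to 0.65 and Cry1 to Cry2 from 0.58 to 0.93, while Nr1d1 to Nr1d2 moved from -0.55 to -0.13. The order by all exons was added after seeing the data. The cause of these changes was not tested. No paired analysis between groups was possible because the series holds a single group. For Per3 and Nr1d1 depth limits what can be seen, since their spread was below counting error.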
